A study of Caenorhabditis elegans with 4 samples.

Results

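Peaks of the cohesin subunit COH-3 on the X chromosome of adult Caenorhabditis elegans hermaphrodites are described here. They were taken as all X entries of the series-wide peak list, 686 of its 7498 peaks. Cohesin is a protein ring that holds sister chromatids together, and COH-3 is one of the meiotic kleisins, the subunits that close the ring. In the germ line of this animal, meiotic cohesin lies along the chromosome axes, to which the synaptonemal complex attaches. The X chromosome differs from the autosomes there: it is largely silent through much of meiosis, carries repressive chromatin, and has its pairing centre near its left end. In somatic cells of hermaphrodites, X is also bound by the condensin-containing dosage compensation complex, which loads at dedicated recruitment sites. Positions of the pairing centre and of those sites were not used here.

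The series has 4 libraries, 2 from COH-3 ChIP and 2 from input DNA, and all came from fem-2(b245)III hermaphrodites kept at 20 °C. By the stage label the animals were young adults that contain a germ line, while by the growth protocol they were gravid when harvested from batch cultures. Whole animals were used, so a peak cannot be assigned to germ line or soma, and no marker of either can be read from peak lists. The gene fem-2 acts in sex determination, and its loss feminizes the germ line; whether it did so in these cultures the labels do not say. The antibody was an affinity-purified rabbit polyclonal to COH-3, which has a closely similar paralogue, COH-4. The labels do not say whether it separates them. The ChIP libraries carry the replicate numbers 1 and 2, with no statement that they are separate cultures, so the spread between them may be technical. Values of the input libraries were not used here, and the read depth is unknown. Coordinates are on WormBase WS220, the ce10 build, and scores are the authors' own, usable only to rank peaks within a list.

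In the series-wide list, X peaks were sparser and higher in score than autosomal peaks, and their median width was close to that of autosomal peaks. X carried 38.7 peaks per Mb, against 55.5 on V, 77.1 on II, 80.4 on IV, 100.8 on I and 112 on III, and its peaks covered 1.88% of its length against 3.95% of the autosomes. The lower density was not seen in both libraries: in the replicate 1 list the values were 16.8 per Mb on X and 18.3 per Mb on autosomes, a ratio of 0.917 whose log2 interval includes 0 (-0.31 to 0.06), and in replicate 2 they were 14.8 and 37.2, a ratio of 0.398. The median X peak was 282 bp wide (95% order-statistic interval 265 to 297), beside medians of 284.5 to 290.0 bp on the 5 autosomes. Broad peaks of 1200 bp or more made up 49 of the 686 X peaks, or 7.14%, where all 7495 nuclear peaks gave 7.07%. The median score on X was 7.98 (7.35 to 8.53), above the 5 autosomal medians, which ran from 5.88 to 6.60. In the score ranking of all nuclear peaks, the median X peak stood at percentile 61.0 and the medians of the autosomes between 45.9 and 52.6. These are values of a single list, and with 1 X chromosome no test was made. In the replicates' own lists, the median X peak stood at percentile 56.4 in replicate 1, where the autosomes together stood at 48.4. In replicate 2 the values were close, at 51.1 and 49.99.

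The share of peaks that lay on X rose with the score. X held 6.46% of the lowest-scoring quartile of nuclear peaks (95% exact interval 5.39 to 7.67), 7.47% of the next, 10.5% of the one above and 12.2% of the highest (10.7 to 13.7). It held 54 of the 375 peaks in the top 5% by score, or 14.4% (11.0 to 18.4). In the top 1% it held 19 of 74, or 25.7% (16.2 to 37.2), more than any single autosome, since IV held 18. X makes up 17.7% of the nuclear length. Its shortage of series-wide peaks thus shrank with the score, and in both top bands the interval includes the share of length. The intervals on peaks allow for counting error alone, and peaks close together may not be independent.

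**Figure D1:**
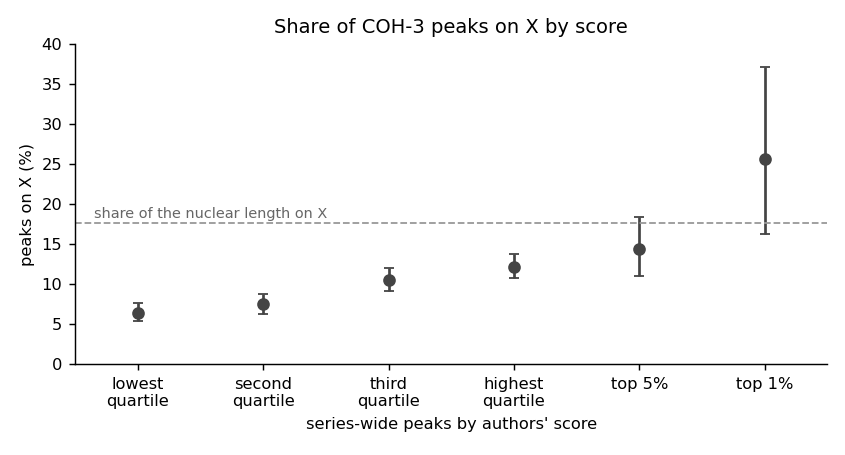
Share of series-wide COH-3 peaks that lie on X (y axis, percent) in the 4 quartiles of the authors' score and in the top 5% and top 1% (x axis). Points are shares, bars are 95% exact binomial intervals, and the dashed line is the share of nuclear length on X; the share runs from 6.46% in the lowest quartile to 25.7% in the top 1%.

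The highest-scoring peaks of X were compact. In the top 1% by score, the 19 X peaks had a median width of 923 bp (quartiles 627 to 1066) and 16 of them were under 1200 bp. The 55 autosomal peaks of that band had a median of 1686 bp (quartiles 632 to 3076), and 21 were under 1200 bp. The autosomal medians ranged from 943.5 bp on IV to 2770 bp on V, so X was the lowest of the 6, by little from IV. In the top 5% X was again lowest, with 1109 bp against 1313 to 1631 bp on the autosomes. These bands were chosen after their values were seen, and no test was made.

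The 10 highest-scoring X peaks were all overlapped by a peak in each replicate. This was not particular to X, since all 55 autosomal peaks in the top 1% by score were too. Of the 10 on X, 4 lay in the left, 3 in the central and 3 in the right of 3 equal segments of the chromosome. Neighbours among them were 122.9 to 3432 kb apart. The first, from 1503411 to 1505138 (1728 bp, score 186.41), was the highest-scoring nuclear peak of the list, and the replicate peaks under it both scored 3100. That is the value at which the replicate scores are tied, in 31 peaks of replicate 1 and 118 of replicate 2. The second was the widest peak of X, 10911 bp from 16929343 to 16940253 (score 180.97); it spanned 4 peaks of replicate 1 and 2 of replicate 2, with best scores of 3100 in each. At the other 8 sites the replicate 2 score lay below the tie, while replicate 1 reached it or exceeded it at 4.

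The third site, from 11093658 to 11094597 (score 166.04), scored 3100 in replicate 1 and 1599 in replicate 2. The fourth, from 6296164 to 6296931 (147.97), scored 2993 and 1139. The fifth, from 14525327 to 14526326 (147.51), scored 3117 and 1196. Each of these 3 was a single peak of 768 to 1000 bp. The sixth, from 1626902 to 1627532 (138.69), was the narrowest of the 10 at 631 bp and scored 1803 and 854.17. The seventh, from 4208453 to 4209602 (135.6), scored 3100 and 1417, and the eighth, from 8035911 to 8036995 (134.83), scored 3100 and 1108. The ninth, from 2996394 to 2997440 (133.85), scored 2936 and 986.82. The last, from 16056036 to 16056862 (120.57), ranked 39 among all nuclear peaks and scored 2599 and 883.63. Over all 10 sites replicate 1 was at 3100 or above at 6 and replicate 2 at 2.

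Sites on X ranked high among replicate 1 peaks and less so among replicate 2 peaks, each time against autosomal sites of the same list. Among the series-wide peaks found in both replicates, the median replicate 1 percentile was 78.3 for the 125 on X and 61.9 for the 916 on autosomes, whose chromosomes ran from 53.4 to 68.5. In replicate 2 the order turned: the median was 74.1 on X and 79.8 on autosomes, with a range of 73.8 to 85.9. In the top 1% by score, replicate 2 reached 3100 at 4 of 19 X sites and 28 of 55 autosomal sites, and replicate 1 at 7 of 19 and 11 of 55. Single autosomes ran from 5.56% on IV to 37.5% on V in replicate 1, so V matched X at 36.8%. In replicate 2 they ran from 27.3% on I to 87.5% on V, beside 21.1% on X. Over all peaks of the replicate 2 list the order did not turn, with medians at percentile 51.1 on X and 49.99 on autosomes. The peaks found in both were picked by overlap with the same lists whose ranks are compared, and the top 1% by the series-wide score. These values were looked at after others had been seen, and no test was made.

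The other wide peaks of X scored less. The second widest, 5525 bp from 289785 to 295309, had a score of 54.36, with 526.32 in replicate 1 and 3100 in replicate 2. The third, 4936 bp from 14384806 to 14389741, had a score of 29.71, with a best score of 155.94 over 3 peaks in replicate 1 and 3100 over 1 peak in replicate 2. At both, replicate 2 held a single peak at the tie that covered the whole series-wide peak. Over all X peaks, width and score rose together (Spearman's rho 0.65 over 686 peaks, and 0.66 to 0.69 on the autosomes; a description, since both come from the same reads).

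The replicates supported X peaks in a different mix from autosomal ones. With an overlap of at least 1 bp, 125 of the 686 X peaks (18.2%; 95% exact interval 15.4 to 21.3) were found in both replicate lists, where all nuclear peaks gave 13.9%. Found in replicate 1 only were 146 (21.3%; 18.3 to 24.5), against 6.58% of all nuclear peaks, and in replicate 2 only 143 (20.8%; 17.9 to 24.1), against 33.4%. The remaining 272 (39.7%; 36.0 to 43.4) were found in neither, against 46.1%. For replicate 1 only, the 5 autosomes ran from 3.36% on I to 8.35% on V, and for replicate 2 only from 31.8% on II to 36.8% on III, so X lay outside both ranges. Replicate 2 has many more autosomal peaks than replicate 1 and fewer X peaks, and these shares move with those numbers. How the series-wide list was made from the libraries is not given, so this overlap is no independent evidence.

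**Figure D2:**
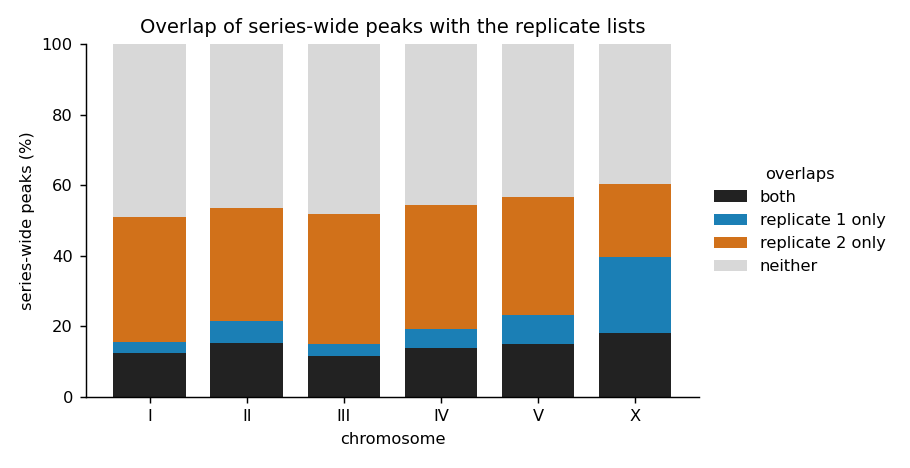
Percent of series-wide COH-3 peaks on each chromosome (y axis; x axis, chromosome) that overlap both replicate lists, replicate 1 only, replicate 2 only or neither. X has 21.3% in replicate 1 only, where the autosomes have 3.36 to 8.35%.

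Taken per length, the shortage on X differed between these classes. Peaks found in replicate 2 only were at 8.07 per Mb on X and 28.6 on autosomes, which is -1.83 as a log2 ratio (95% exact interval -2.08 to -1.58). Peaks found in neither were at 15.4 and 38.5 per Mb, or -1.33 (-1.51 to -1.15). Peaks found in both were at 7.05 and 11.1 per Mb, or -0.65 (-0.93 to -0.38). Peaks found in replicate 1 only went the other way, with 8.24 per Mb on X and 4.20 on autosomes, or 0.97 (0.68 to 1.25). For all series-wide peaks together the log2 ratio was -1.09 (-1.21 to -0.98). The cause of this split between the classes was not tested.

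Peaks of these classes on X differed in strength. Those found in both had a median width of 694 bp (quartiles 418 to 1356) and a median score of 35.04 (23.75 to 58.97), where autosomal peaks of that class had 898 bp and 29.2. Those found in replicate 1 only had 292 bp and 10.0, against 302 bp and 7.07 on autosomes. Those found in replicate 2 only had 377 bp and 8.21, against 387.5 bp and 8.92. Those found in neither were the narrowest and weakest, at 203 bp and 5.16, against 207.5 bp and 4.33. By score quartile of the X peaks, support in both replicates rose from 1 of 172 in the lowest to 111 of 172 in the highest. Median width rose too, from 195 to 565 bp, so the rise in support by 1 bp overlap is not separate from width. The highest quartile runs from 15.96 to 186.41. In that highest quartile, 1 peak was found in neither replicate: 240 bp from 11934923 to 11935162, with a score of 17.32. The rise with the score was not particular to X. Support in both was 13.5% over all autosomal peaks and 27.2% in the better-scoring 50% of the list, beside 18.2% and 28.9% on X.

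Conversely, the series-wide list held 285 of the 298 X peaks of replicate 1 (95.6%) and 248 of the 262 of replicate 2 (94.7%), beside 96.8% and 97.3% of their autosomal peaks. Thus 13 and 14 X peaks of the replicates lay outside the peaks described here.

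Along X, the 1 Mb bins held from 23 to 53 series-wide peaks over the 17 whole bins, with a median of 39. The fullest were bin 9 (8000001 to 9000000) with 53, bin 2 (1000001 to 2000000) with 52, and bins 14 and 17 (13000001 to 14000000 and 16000001 to 17000000) with 49 each. The emptiest were bin 8 (7000001 to 8000000) with 23, bin 16 (15000001 to 16000000) with 24 and bin 10 (9000001 to 10000000) with 27. The fullest bin thus lay between 2 of the 3 emptiest, and the 6 leftmost bins held 32 to 52 peaks each. The ratio of the fullest to the emptiest bin was 2.30 on X and 2.15 to 3.34 on the autosomes. The emptiest autosomal bin, on V, held 27.

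The numbers of X peaks per bin did not rise and fall together in the replicates. Bin 1 held 12 peaks in replicate 1 and 32 in replicate 2, its fullest, and bin 2 held 14 and 23. Bin 9 held 25 and 8, and bin 11 held 20 and 8. Replicate 1 had more peaks in 11 of the 18 bins and replicate 2 in 7. Over the 17 whole bins, Spearman's rho between the replicates was -0.11 and Pearson's r -0.071, where the autosomes gave rho of 0.30 to 0.55 over 13 to 20 bins each. These are descriptions over bins that share their libraries, and on X they rest on 4 to 32 peaks per bin. Both lists were lowest in bin 8, with 8 and 4 peaks.

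**Figure D3:**
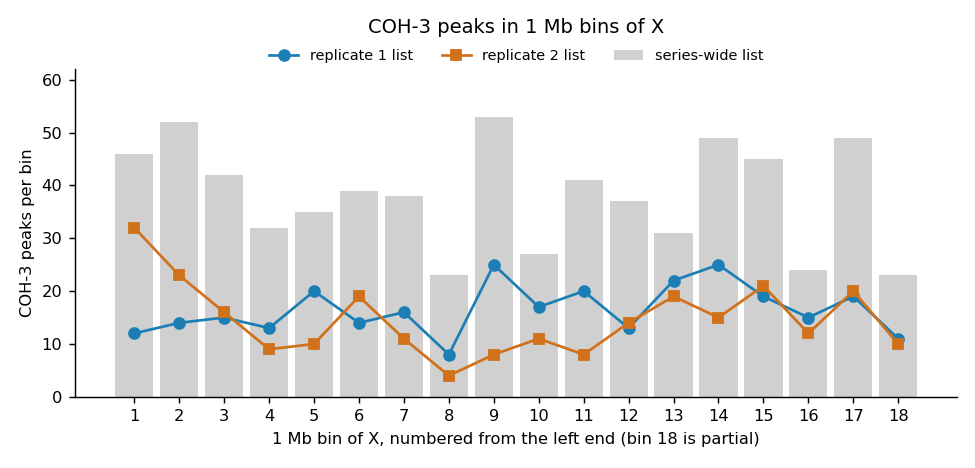
Number of COH-3 peaks (y axis) in 1 Mb bins of X, numbered from the left end (x axis), in the series-wide list (bars) and the lists of replicate 1 (circles) and replicate 2 (squares). Replicate 2 is highest in bin 1 with 32 peaks, where replicate 1 has 12, and both are lowest in bin 8.

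Over larger parts, the density of all series-wide peaks of X differed little. X was cut into 3 equal segments of 5.91 Mb, which held 242 peaks on the left, 210 in the centre and 234 on the right, or 41.0, 35.6 and 39.6 per Mb. The log2 ratios to the rest of X were 0.12 (95% exact interval -0.11 to 0.35), -0.18 (-0.42 to 0.06) and 0.05 (-0.18 to 0.28), each with 0 inside its interval. Other choices moved this: for the 125 peaks found in both replicates the centre was at -0.66 (-1.31 to -0.06), and with the outer 25% of the length as the left segment, that segment was at 0.26 (0.02 to 0.50). Peaks covered 2.02%, 1.58% and 2.05% of the segments. Median widths were 292.5 bp (262 to 316), 263.5 bp (249 to 296) and 285.5 bp (261 to 309), with overlapping intervals. Median scores were 7.73 (6.60 to 8.53), 7.42 (6.87 to 8.36) and 8.91 (7.73 to 10.2), so the right segment tended highest, again with overlapping intervals.

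No segment of X passed in both replicates. Replicate 1 had 87, 97 and 114 peaks from left to right, and replicate 2 had 106, 54 and 102. For the left segment the log2 ratios to the rest were -0.28 in replicate 1 (two-sided exact binomial test, p = 0.168 adjusted over 6 tests) and 0.44 in replicate 2 (exact binomial adjusted p = 0.0461), in opposite directions. For the centre they were -0.05 (exact binomial adjusted p = 0.806) and -0.95 (exact binomial adjusted p = 4.38e-05). For the right segment they were 0.31 and 0.35, in the same direction with neither passing (exact binomial adjusted p = 0.112 in each). The left and central segments thus passed in replicate 2 alone. The binomial test treats peaks as independent draws, which closely spaced peaks are not, and 2 libraries are too few for a test between samples.

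The centre of X was set directly against the centre of the autosomes. In replicate 1, 97 of 298 X peaks (32.6%) and 574 of 1514 autosomal peaks (37.9%) were central, a log2 odds ratio of -0.34 (two-sided Fisher's exact test, p = 0.0879 adjusted over 2 tests). In replicate 2 the numbers were 54 of 262 (20.6%) and 1016 of 3070 (33.1%), a log2 odds ratio of -0.93 (Fisher's exact adjusted p = 4.74e-05). X was lower than the autosomes together in both libraries, and the difference passed in replicate 2 alone, so it was not called. With the central 50% of the length as the centre it passed in both, at -0.52 and -0.78 (Fisher's exact adjusted p = 0.00487 and 7.19e-05), and also in the better-scoring 50% of each list, at -0.63 and -0.94 (Fisher's exact adjusted p = 0.0185 and 0.00628). In the series-wide list 30.6% of X peaks and 38.0% of autosomal peaks were central.

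**Figure D4:**
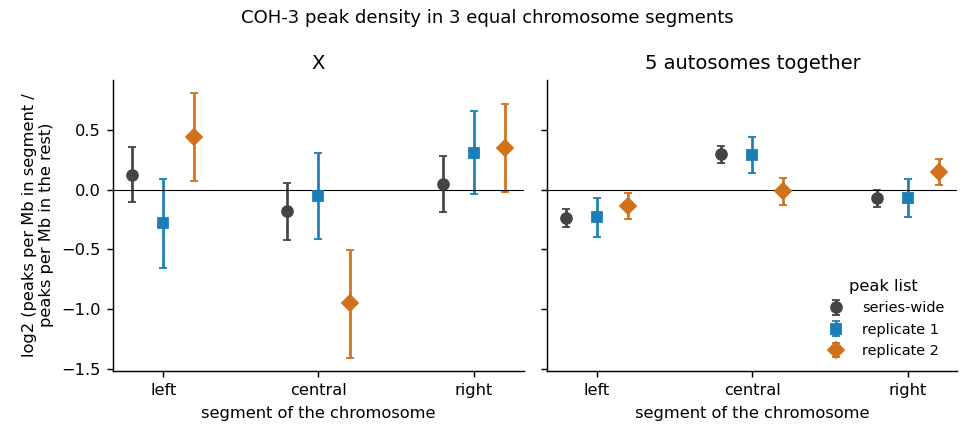
Log2 ratio of COH-3 peak density in each segment of the chromosome to the rest of it (y axis) for the left, central and right segments (x axis) of X and of the 5 autosomes together, in 3 peak lists. Bars are 95% exact binomial intervals; on X the centre is at -0.95 in replicate 2 and -0.05 in replicate 1, and on the autosomes at -0.02 and 0.29.

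The kind of support also varied along X. In the left segment, 72 of 242 peaks were found in replicate 2 only (29.8%) and 37 in replicate 1 only (15.3%). In the centre the order was the opposite, with 27 of 210 (12.9%) and 61 (29.0%). In the right segment the shares were close, at 18.8% and 20.5%. Peaks found in both replicates made up 19.0%, 14.3% and 20.9%, and those in neither 36.0%, 43.8% and 39.7%. On the autosomes replicate 2 only exceeded replicate 1 only in each segment, with 31.1 to 38.3% against 4.34 to 6.22%. Of the 97 central X peaks of replicate 1, 33 (34.0%) overlapped replicate 2, against 47 of 87 (54.0%) on the left and 64 of 114 (56.1%) on the right. In the other direction the centre was not the lowest: 29 of its 54 replicate 2 peaks (53.7%) overlapped replicate 1, against 44 of 106 (41.5%) on the left and 52 of 102 (51.0%) on the right. These shares move with the number of peaks in each list, and replicate 2 had 54 in the centre against 106 and 102 beside it. The overlap of replicate peaks by segment was not taken for the autosomes, so whether it is particular to X is not shown.

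X peaks were also farther apart. The median stretch between neighbouring series-wide peaks was 9740 bp on X and 1954 to 5288 bp on the autosomes. A neighbour within 1000 bp was present for 266 of the 686 X peaks (38.8%) and for 48.3 to 60.9% of the peaks of each autosome. The mean stretch on X was 25380 bp, well above the median, so the stretches were uneven in length. The same held on the autosomes, where means of 8468 to 17509 bp stood beside those medians. Whether peaks lay in groups was not tested. Some close neighbours lay under a single replicate peak. In replicate 1, 9 of the 298 X peaks (3.02%) overlapped several series-wide peaks, against 2.71% of autosomal peaks. In replicate 2 it was 19 of the 262 (7.25%), against 11.4% of autosomal peaks, so this was not particular to X.

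Stretches of 100 kb or more without a series-wide peak numbered 35 on X and made up 4672 kb, or 26.4% of its length. The autosomes had from 4 on I and III to 25 on V, which made up 3.80% to 15.7% of their length. On X they were spread over the segments, with 12 on the left, 13 in the centre and 10 on the right. Fewer peaks give longer stretches by themselves, and the longest stretch on X, 222 kb, was close to the longest on V at 229.8 kb and on II at 215.6 kb.

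The 5 longest were found outside the 1 Mb bins at either end. The longest ran from 5485848 to 5707907 and contained 1 peak of replicate 2. The next was 175.5 kb from 12667959 to 12843496, followed by 173.5 kb from 7507358 to 7680879 in bin 8, the emptiest bin. The others were 172 kb from 15811182 to 15983258 and 161 kb from 14562311 to 14723473. Replicate peaks reached into some of the 35 stretches: 16 were free of any replicate 1 peak, 23 of any replicate 2 peak and 11 of both. Most of these lay across an edge, since 0 peaks of replicate 1 and 2 of replicate 2 lay wholly inside. That number is small by construction, because 13 and 14 X peaks of the replicates are missing from the series-wide list. An empty stretch shows only that no peak passed the caller's threshold, at a depth that is unknown.

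**Figure D5:**
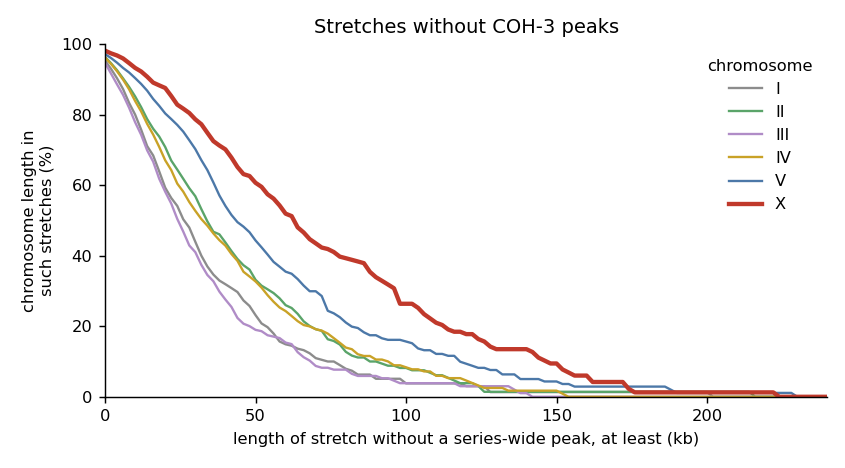
Percent of chromosome length (y axis) that lies in stretches without a series-wide COH-3 peak of at least the length on the x axis (kb), for each chromosome. At 100 kb X is at 26.4%, above V at 15.7% and the other autosomes.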

How the data were processed

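The submitters' processing notes name BWA and the ce10 build, without a version. The authors deposited 3 peak lists, on the WormBase WS220 build per the file headers. Their source column names MACS for each replicate and MACS v2 for the series-wide list. The peak score deposited by the authors is on a scale the files do not name. No source used here gives the thresholds, the use of input, duplicate removal or how libraries were combined, each of which could change the number and width of peaks.

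The members and lists were chosen with earlier results of these data known. Peaks on the 6 nuclear chromosomes were used (3 mitochondrial peaks left out). The end of each chromosome was set at its last peak end among the 3 lists, 17.7 Mb for X, so lengths are approximate. X was cut into 3 equal segments and into 1 Mb bins. Peaks were placed by midpoint, and overlap required 1 bp. Each replicate was tested by two-sided exact binomial and Fisher's exact tests with Benjamini-Hochberg adjusted p-values; a call needed p under 0.05 and 1 direction in both. The tests were checked on simulated lists whose peaks were placed independently, so the check does not cover closely spaced peaks. Intervals are Clopper-Pearson, or order-statistic for medians. The sites named were fixed by rule: the 10 highest-scoring and 3 widest X peaks, the 5 longest empty stretches, the 3 fullest and 3 emptiest whole bins (a tie added 1) and the highest-scoring peak found in neither replicate. Gene annotation and sequence on WS220 were not used here, so no genes are named. No column of another sample was present. Python 3.11.15, numpy 2.4.6, scipy 1.17.1, pandas 2.3.3 and matplotlib 3.10.9 were used.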

Additional observations from a re-analysis of the deposited data

How the results depend on the processing

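The log2 density ratio of X to autosomes, -1.09, was -0.75 in the better-scoring 50%, -0.92 after merging peaks closer than 500 bp, -0.65 for peaks in both replicates, and -1.33 in the replicate 2 list. In the replicate 1 list it was -0.12, with an interval that includes 0 (-0.31 to 0.06), so the shortage rests on replicate 2 and the series-wide list. The ratio of median widths, 0.979, was 0.778 in the better-scoring 50%, 0.879 after merging, 0.773 for peaks in both replicates and 1.06 in replicate 1. The median score percentile, 61.0, was 56.4 and 51.1 in the replicate lists and 66.7 for peaks of 200 to 500 bp. Support in both replicates, 18.2%, was 28.9% in the better-scoring 50%, where autosomes had 27.2%, and 14.6% with 50% of the peak covered; the share overlapping replicate 1, whatever replicate 2 held, was 39.5% on X and 18.5% on autosomes, and the share overlapping replicate 2 was 39.1% and 48.2%, so the direction turns with the library left out. The 35 stretches became 54 in the better-scoring 50%, 121 at 50 kb and 1 at 200 kb, and stayed 35 when any of the 3 lists could mark a stretch. Series-wide peaks in both replicates gave -0.66 (-1.31 to -0.06) for the central and 0.37 for the right segment. In the replicates, leaving out 1 library moved the left segment between -0.28 (replicate 1 alone) and 0.44 (replicate 2 alone, p under 0.05), the centre between -0.95 (replicate 2 alone, p under 0.05) and -0.051 (replicate 1 alone), the right segment between 0.31 and 0.35, and the centre of X against that of autosomes between -0.93 (replicate 2 alone, p under 0.05) and -0.34 (replicate 1 alone); by covered bases the right segment was at 0.30. The centre of X against that of autosomes was -0.63 in the mean. It passed in both replicates at -0.78 in the better-scoring 50% and at -0.65 with the central 50% of the length. After merging peaks closer than 500 bp it was -0.60 and passed in replicate 2 alone. The series-wide list, at -0.47, passed by itself. A list that passes alone is no call, which needs both replicates. The cause was not tested. No paired analysis was possible because replicate numbers are shared only with the inputs, for which no values were used. Read depth is unknown and limits what an absent peak shows.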
